A study of Mus musculus with 4 samples.

Results

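ChIP-seq for the transcription factor MIZ-1 gave 823 peaks at the promoters of small RNA genes in B220+ splenocytes, of 112566 peaks in all. These genes are annotated as miRNA, snoRNA, scaRNA, snRNA, misc_RNA or rRNA. A peak was counted when the transcription start nearest to it belonged to such a gene and the peak covered that start, or lay less than 2000 bp before it or less than 1000 bp after it. The MIZ-1WT list held 218 of these peaks, at 210 genes, of 34209 peaks in that list. The MIZ-1DPOZ list held 605, at 556 genes, of 78357 peaks. The 4 libraries comprise a ChIP and an input for each genotype. Chromatin came from B220+ spleen cells, and the ChIP used the anti-Miz-1 antibody H-190. MIZ-1WT cells carried intact MIZ-1, and MIZ-1DPOZ cells came from MB1-Cre mice with a floxed Miz-1 POZ domain. In these mice Cre acts in B lineage cells, whose MIZ-1 protein lacks the POZ domain and keeps its zinc fingers. Both genotypes were of C57BL/6 background. Age is not in the labels, whether animals were pooled is not given in the sources used here, and B220+ cells left without deletion could not be counted. The cell type could not be checked against marker genes, since no RNA was measured in these libraries. With 1 ChIP library per genotype no test between genotypes was possible, and each statement compares the 2 libraries.

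MIZ-1 (ZBTB17) binds DNA through zinc fingers, and its POZ domain mediates contacts between MIZ-1 molecules and with cofactors. The small RNA genes differ in how they are made. Most snoRNAs and scaRNAs, which guide modification of rRNA and snRNA, are processed from introns of host genes, and many miRNAs are cut from longer RNA polymerase II transcripts. Spliceosomal snRNAs such as U1 are transcribed by RNA polymerase II from promoters of their own. U6 snRNA, 5S rRNA, tRNA and 7SK RNA are products of RNA polymerase III. Many annotated small RNA genes are members of repeated families or degenerate copies, so the sequence at a peak summit may occur at several places in the genome.

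Sequences of several repeated loci described below are shown first, since their copies carried peaks together or side by side. All coordinates are mm10 and 1-based, and all sequences are 5′ to 3′ on the strand of the gene. The family of 57-base genes had a peak at every annotated member in both lists. It is annotated by GENCODE as miRNA, but what this sequence is was not settled here, and whether it makes a miRNA was not tested. Capitals mark bases that differ from Gm23935. Gm24270 and Gm24245 were identical to Gm23935, Gm24187 and Gm25911 differed from it at 1 base each, with Gm25911 also 1 base shorter, and Gm23388 differed at 4 bases.
Gm23935, chr16:11144125-11144181, plus strand: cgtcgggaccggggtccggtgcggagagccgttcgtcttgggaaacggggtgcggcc
Gm24270, chr9:56223715-56223771, minus strand: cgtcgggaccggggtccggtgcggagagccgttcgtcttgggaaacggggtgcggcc
Gm24245, chr4:139338304-139338360, plus strand: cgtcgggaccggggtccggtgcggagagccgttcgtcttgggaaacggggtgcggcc
Gm24187, chr13:9834469-9834525, minus strand: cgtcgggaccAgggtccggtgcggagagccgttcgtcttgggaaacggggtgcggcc
Gm25911, chr1:167340369-167340424, minus strand: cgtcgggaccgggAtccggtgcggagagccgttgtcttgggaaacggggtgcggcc
Gm23388, chr8:85112012-85112068, minus strand: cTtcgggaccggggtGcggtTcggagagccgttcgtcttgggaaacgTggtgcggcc

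Mir6546 and its near copies Gm27552 and Gm27844 lie in a tRNA gene cluster on chromosome 1, and each had peaks in both lists. Capitals mark bases that differ from Mir6546, and both copies carried the same 2 differences.
Mir6546, chr1:171064591-171064652, minus strand: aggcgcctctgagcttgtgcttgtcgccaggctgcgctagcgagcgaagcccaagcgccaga
Gm27552, chr1:171072226-171072287, minus strand: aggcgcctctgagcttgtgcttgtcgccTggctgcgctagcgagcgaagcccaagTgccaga
Gm27844, chr1:171079840-171079901, minus strand: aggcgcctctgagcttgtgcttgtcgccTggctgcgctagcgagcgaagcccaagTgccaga

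For the 5S array on chromosome 8, the 151 bases around the summit of the MIZ-1DPOZ peak assigned to the gene n-R5s133 are shown, in the spacer before the gene. Capitals mark the 21 bases centred on the summit, which lay 318 bp before the gene's start.
n-R5s133 summit, chr8:123595115-123595265, minus strand: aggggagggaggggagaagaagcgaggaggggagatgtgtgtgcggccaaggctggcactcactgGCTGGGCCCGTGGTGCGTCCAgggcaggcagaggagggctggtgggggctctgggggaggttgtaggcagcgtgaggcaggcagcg

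Gm25747 and Gm22175, annotated as miRNA, are neighbouring repeats between Ighm and Ighj4 in the immunoglobulin heavy chain locus. Capitals mark the single base at which Gm22175 differs.
Gm25747, chr12:113424645-113424722, minus strand: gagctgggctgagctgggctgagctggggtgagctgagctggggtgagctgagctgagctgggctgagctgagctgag
Gm22175, chr12:113425150-113425227, minus strand: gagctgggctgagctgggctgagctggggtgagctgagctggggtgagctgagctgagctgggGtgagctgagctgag

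Rnu1b1, a U1 snRNA gene, had a peak before its start in both lists. Its 250 bases before the start are shown with the first 20 bases of the gene in capitals.
Rnu1b1 start, chr3:96360098-96360367, minus strand: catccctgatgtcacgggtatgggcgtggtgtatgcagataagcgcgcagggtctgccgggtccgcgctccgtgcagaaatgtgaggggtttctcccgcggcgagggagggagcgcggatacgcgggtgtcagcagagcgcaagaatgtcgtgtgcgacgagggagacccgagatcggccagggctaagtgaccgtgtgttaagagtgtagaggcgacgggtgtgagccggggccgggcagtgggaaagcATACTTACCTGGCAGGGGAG

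Small RNA genes carried peaks less often than genes as a whole in both lists. Of 6059 small RNA genes, 3.47% had a promoter peak in MIZ-1WT (95% Wilson interval 3.03 to 3.96), against 13.8% of all 55413 genes. In MIZ-1DPOZ 9.18% had one (8.48 to 9.93), against 24.6% of all genes. With both lists held to the number of peaks of the shorter one, the MIZ-1DPOZ share was 3.32%, below that of MIZ-1WT, so the order of the lists changed with their length. A peak in both lists was found for 124 small RNA genes or 2.05%, against 11.1% of all genes. Among protein-coding genes the shares were 27.5% and 44.0%. As a whole the MIZ-1DPOZ list was the longer one, and its ChIP library was deeper by a factor of 1.34, so the counts come from unequal depths. A peak was given only to its nearest start, so a small RNA gene beside another start could lose it to that gene. Wilson intervals here cover counting error only, and members from the same repeat are not independent.

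Among the types, rRNA and miRNA genes had the highest shares. Peaks lay at 96 of 2202 miRNA genes in MIZ-1WT, or 4.36% (3.58 to 5.30), and at 272 in MIZ-1DPOZ, or 12.4% (11.04 to 13.8). For rRNA genes the counts were 17 of 354, or 4.802% (3.02 to 7.56), and 46, or 13.0% (9.89 to 16.9). Of these, 9 of the 17 and 33 of the 46 lay in a single array of 51 5S genes, so the MIZ-1DPOZ share and its interval rest mostly on that array. snRNA genes had 43 of 1383, or 3.11% (2.32 to 4.16), and 89, or 6.44% (5.26 to 7.85). snoRNA genes gave nearly the same shares, 44 of 1507 or 2.92% (2.18 to 3.90) and 100 or 6.64% (5.49 to 8.01). The misc_RNA type, which holds 7SK, Y RNA, telomerase RNA and many fragments, had 9 of 562, or 1.60% (0.845 to 3.02), and 44, or 7.83% (5.88 to 10.3). Of 51 scaRNA genes, 1 had a peak in MIZ-1WT and 5 in MIZ-1DPOZ, or 9.80% (4.26 to 20.98). The intervals of rRNA, miRNA, snRNA and snoRNA genes overlapped in the MIZ-1WT list, whereas in the MIZ-1DPOZ list those of miRNA and rRNA genes lay above those of snRNA and snoRNA genes.

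**Figure D1:**
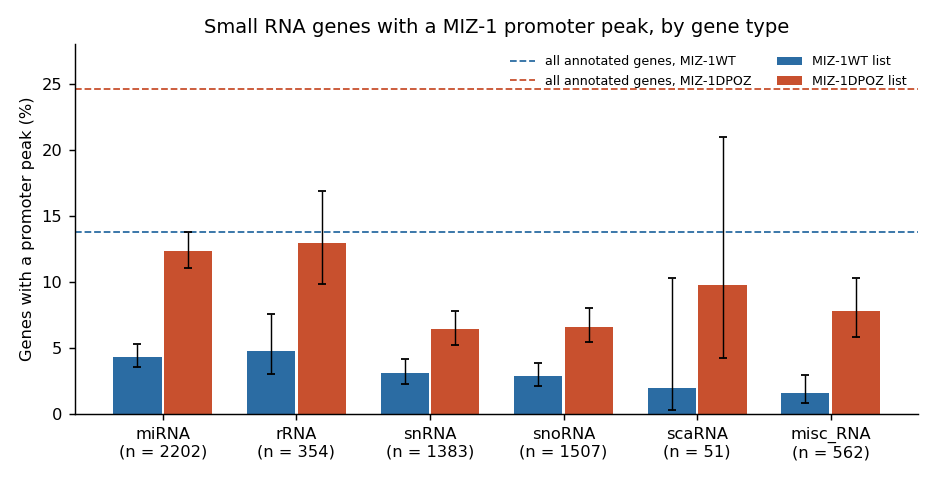
Share of annotated genes of each small RNA type, in percent, carrying a promoter peak, by library, with 95% Wilson intervals. The MIZ-1DPOZ share, from the longer list, was the higher in every type, from 6.44% of snRNA genes to 13.0% of rRNA genes, but over all types it was 3.32% against 3.47% with lists of equal length, and all small RNA shares lay under those of protein-coding genes.

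Fewer of the members were shared between the libraries than of promoter peaks at large, which are mostly those of protein-coding genes. Of the 218 MIZ-1WT members 121 overlapped a MIZ-1DPOZ peak by at least 1 bp, or 55.5% (48.9 to 61.95), against 71.6% of all 8926 MIZ-1WT promoter peaks. Of the 605 MIZ-1DPOZ members 128 overlapped a MIZ-1WT peak, or 21.2% (18.1 to 24.6), against 37.0% of all 16822 MIZ-1DPOZ promoter peaks. At promoter peaks of genes that are neither small RNA nor protein-coding, the shares were 65.1% (62.6 to 67.5) and 25.3% (24.0 to 26.8), so that only the MIZ-1WT interval lay apart from that of the members. With lists of equal length the members' shares were 31.7% and 34.8%, which turned their order. Shares over all promoter peaks were not computed at that length, so whether the contrast with them holds there was not examined. At miRNA genes 70.9% (61.5 to 78.8) of MIZ-1WT and 24.8% (20.3 to 29.9) of MIZ-1DPOZ peaks were shared. Shares at snRNA genes were 38.6% (25.7 to 53.4) and 19.8%, at snoRNA genes 40.9% (27.7 to 55.6) and 17.9%, at rRNA genes 41.2% (21.6 to 63.99) and 14.0%, and at misc_RNA genes 55.6% (26.7 to 81.1) and 15.2%. The only MIZ-1WT peak at a scaRNA gene was shared. By gene, 71 miRNA genes had a peak in both lists, which is 74.0% of the miRNA genes with a MIZ-1WT peak and 26.1% of those with a MIZ-1DPOZ peak. Over all genes 6165 had a peak in both lists, of 7656 with a MIZ-1WT peak and 13605 with a MIZ-1DPOZ peak. Those are larger shares than the ones of the miRNA genes. Of the snRNA genes 18 were in both lists, 25 only in MIZ-1WT and 71 only in MIZ-1DPOZ. These counts were 21, 23 and 79 for snoRNA genes, 8, 9 and 38 for rRNA genes, 5, 4 and 39 for misc_RNA genes and 1, 0 and 4 for scaRNA genes.

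More members than protein-coding promoter peaks lay on repeated sequence. The genomic occurrences of 5 stretches of 50 bases around each summit were counted, and a median above 1 was called multi-copy. Only the assembled chromosomes of mm10 were searched, so copies missing from the assembly were not counted. This held for 39.9% (33.6 to 46.5) of the MIZ-1WT members and 35.9% (32.1 to 39.8) of the MIZ-1DPOZ members, against 9.59% and 12.8% of all promoter peaks. At protein-coding genes the shares were 3.58% and 5.32%, but at the remaining promoter peaks, of other non-coding genes and pseudogenes, they were 33.98% (31.6 to 36.4) of 1504 and 33.9% (32.4 to 35.4) of 3768, within the intervals of the members. Multi-copy summits made up 70.5% (55.8 to 81.8) and 52.7% (42.6 to 62.7) of the peaks at snRNA genes, 52.3% and 43.4% at snoRNA genes, and 64.7% and 74.0% at rRNA genes. Peaks at miRNA genes had fewer, 19.4% (12.9 to 28.1) and 24.4% (19.96 to 29.5). How the authors treated reads that map to several places is not given in the sources used here, and its part in these peaks was not tested.

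Peaks at small RNA genes covered the start site less often than promoter peaks at large. The peak covered the start in 15.1% (10.99 to 20.5) of the MIZ-1WT members and 20.5% (17.5 to 23.9) of the MIZ-1DPOZ members, against 33.9% and 35.4% of all promoter peaks and 24.3% (22.2 to 26.6) and 26.01% (24.6 to 27.4) of those that belong to neither small RNA nor protein-coding genes. The summit lay more than 500 bp before the start in 34.4% and 32.4% of the members, against 10.2% and 13.5% of all promoter peaks and 28.1% and 29.4% of those of the other non-coding genes and pseudogenes. Only miRNA genes came near the whole, with 30.1% and 31.9% of their peaks covering the start. In snRNA genes 1 peak of 44 and 1 of 91 covered it. The median GC content of the bases around the summit was 63.2% (59.2 to 65.2) and 62.2% (61.7 to 62.7), under the 72.6% and 69.2% of all promoter peaks. In MIZ-1WT it was 69.2% for miRNA genes and 50.7% for both snRNA and snoRNA genes, and in MIZ-1DPOZ the gap was smaller, with 63.7%, 56.2% and 58.0%. In the gene models, 41.7% of the MIZ-1WT summits were intergenic and 37.6% intronic, and 8.72% lay in a coding exon. For MIZ-1DPOZ the shares were 32.9%, 38.7% and 13.7%. A start of a protein-coding gene also lay in the promoter window of 32.0% (23.8 to 41.6) and 21.2% (16.97 to 26.1) of the peaks at miRNA genes, and of 16.5% and 12.6% of all members, so that these peaks belong to either gene.

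**Figure D2:**
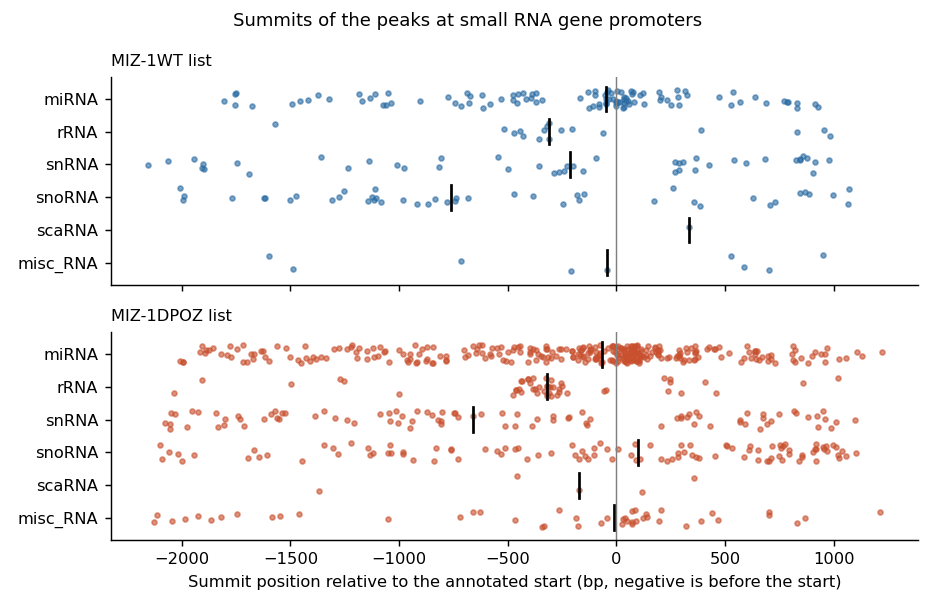
Distance from the start site to the peak summit in bp, by gene type and list, with a point for each peak and a black bar at each median. Summits at rRNA genes gathered before the start, with medians of -310 and -318.5, whereas those of snoRNA and snRNA genes were spread over the window.

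In height the members had the same median as other promoter peaks. The number of fragments over the summit (the pileup) and the local background were recovered from the deposited scores. The median pileup was 9 fragments in MIZ-1WT and 12 in MIZ-1DPOZ (12 to 13 from order statistics), as over all promoter peaks of each list. Median fold enrichment over the local background was 4.84 and 4.68, against 4.98 and 5.11. The heights had quartiles of 8 and 11 fragments in MIZ-1WT and of 10 and 16 in MIZ-1DPOZ. Peaks at rRNA genes were taller, with medians of 20 and 56 fragments, but their median fold was 3.04 and 2.37, since their background was higher. The largest pileup in the lists was 296 and 346 fragments, found at 15 and 12 peaks, and Gm23935 and CT010467.1 came within a few fragments of it or reached it.

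For 102 of the 124 genes with a peak in both lists, the tallest peaks of the lists overlapped. Their heights were compared after division by the depth ratio, which is per bp of the smallest peak width, 148 and 173 bp. The pileups themselves were not scaled for that width, and a larger width raises the pileup. The ratios therefore lean toward MIZ-1DPOZ, and a ratio of 1 need not mean equal signal. On the log2 scale the median ratio, MIZ-1DPOZ over MIZ-1WT, was 0.16 (0.04 to 0.28 from order statistics), the same value as over 4694 promoter genes of all types. At the 63 genes with single-copy summits it was 0.04 (-0.01 to 0.16), and at the 39 genes with a multi-copy summit it was 0.48 (0.16 to 0.64). Over all promoter genes these medians were 0.11 and 0.58. The exact binomial interval of the ratio, which covers counting error only, lay above 1 at 12 genes, of which 11 were multi-copy, and below 1 at 0 genes. Because of that lean, these are not counts of genes that differ between the libraries. The ratio was largest at Gm23960, a copy of SNORA72, with 11 fragments in MIZ-1WT and 56 in MIZ-1DPOZ (3.797, 1.97 to 8.04). Gm23043, an snoRNA gene, had 17 and 74 (3.25, 1.90 to 5.87), and Gm24164, a U6 copy, had 17 and 69 (3.03, 1.76 to 5.49). The summit sequences of these 3 genes had median genomic counts between 1024 and 2312.

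**Figure D3:**
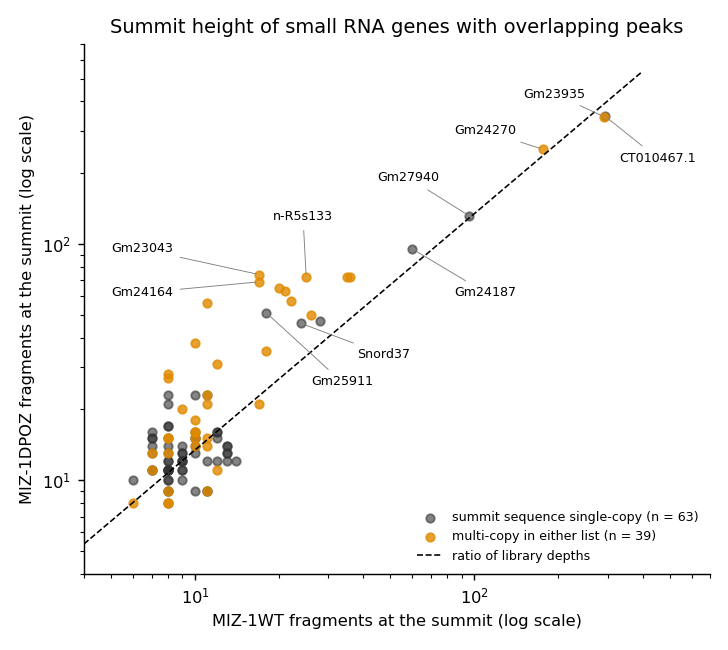
Fragments at the summit in MIZ-1WT (x axis) and MIZ-1DPOZ (y axis), both on log scales, for the 102 small RNA genes with overlapping peaks, coloured by whether the summit sequence is single-copy (63 genes) or multi-copy (39 genes). The dashed line is the ratio of library depths, 1.34, which is per bp of the smallest peak width, whereas the pileups are not. The genes farthest above it are multi-copy.

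The family of 57-base genes held 2 of the 3 tallest peaks among the genes with overlapping peaks. All 6 genes had a peak in both lists, and the peaks of the 2 lists overlapped at each. At Gm23935, in an intron of Zc3h7a on chromosome 16, 291 fragments were counted in MIZ-1WT and 345 in MIZ-1DPOZ, with -log10 q of 329 and 379. These values are close to the largest pileup in each list, so their ratio of 0.884 (0.754 to 1.04) was measured at the top of the scale. It cannot compare the libraries. Gm24270, in an intron of Peak1 on chromosome 9, had 176 and 251 fragments, a depth-scaled ratio of 1.06 (0.874 to 1.30). Gm24187 on chromosome 13 had 60 and 95 (1.18, 0.846 to 1.66), and Gm25911 on chromosome 1 had 18 and 51. Of the 102 genes, Gm25911 was the only one with a summit called single-copy and an interval above 1 (2.11, 1.21 to 3.84). That call rests on the sequence around the summit. The peaks of Gm25911 also cover the 57-base sequence, which has 9 copies in the genome, so this ratio does not come from unique sequence alone. Gm24245, though identical in its 57 bases to the tallest copies, had 13 and 12 fragments, and Gm23388 had 9 and 12. Identity of the 57 bases did not go with a common height.

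A search of the genome for the 57 bases found 9 copies at 90% identity or more, 6 annotated and 3 not. MIZ-1WT peaks covered 8 of the copies and MIZ-1DPOZ peaks all 9. The unannotated copy in Itga9, at chr9:118675096-118675152, had 7 fragments in MIZ-1WT and 16 in MIZ-1DPOZ. Another, at chr1:193632717-193632770, had 12 in each library. The third, in Ica1 at chr6:8728954-8729010, was covered only by a MIZ-1DPOZ peak of 10 fragments. The summits of Gm23935 and Gm24270 were multi-copy, with median counts of 3 or 4, and the others were single-copy, so that the sequences around the 57 bases differ between most copies.

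**Figure D4:**
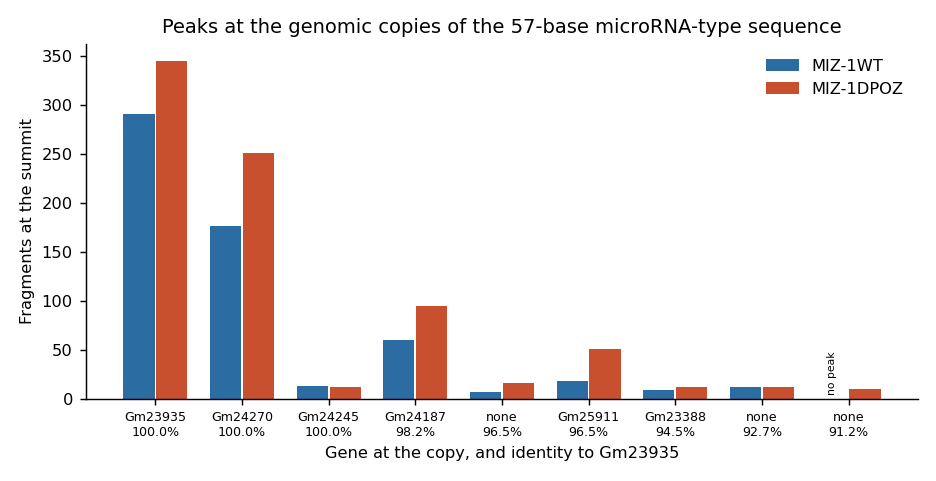
Fragments at the summit of the peak over each of the 9 genomic copies of the 57-base sequence, in MIZ-1WT and MIZ-1DPOZ, on a linear axis without error bars. The copies are in order of identity to Gm23935, and the 3 identical copies ran from 12 to 345 fragments.

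The peaks of Mir6546, Gm27552 and Gm27844 belong to a repeated tRNA gene cluster between 171063865 and 171081304 on chromosome 1. Each list held 8 peaks there, and all 8 overlapped a peak of the other list. Pileups ranged from 27 to 43 fragments in MIZ-1WT with a median of 34, and from 39 to 79 in MIZ-1DPOZ with a median of 69.5. The local background was also higher in MIZ-1DPOZ, with medians of 6.82 and 14.4 fragments, and the median fold enrichment was 4.35 and 4.26. Every summit lay between 114 and 287 bp from the nearest tRNA gene, such as n-TEctc5 and n-TLcag6 at Mir6546. Summits within 500 bp of a tRNA gene made up 4.13% (2.19 to 7.66) of the MIZ-1WT members, against 0.213% of all promoter peaks in that list. In MIZ-1DPOZ the shares were 1.65% (0.900 to 3.02) and 0.137%. This contrast rests on the cluster, since outside it 1 of 210 MIZ-1WT members, or 0.476% (0.0841 to 2.65), and 2 of 597 MIZ-1DPOZ members, or 0.335% (0.0919 to 1.21), lay as near to a tRNA gene. These peaks cannot be assigned to the miRNA genes rather than to the tRNA genes beside them.

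The 5S array gave most of the peaks at rRNA genes. It holds 51 annotated genes at chr8:123538786-123623745, with a median spacing of 1697.5 bp, and lies in an intron of Gm20388. In MIZ-1WT 9 of the genes had a peak, or 17.6% (9.57 to 30.3), and in MIZ-1DPOZ 33, or 64.7% (51.0 to 76.4), with 6 genes in both lists. The MIZ-1WT interval includes the 13.8% of all genes, and the MIZ-1DPOZ interval lay above their 24.6%. Pileups were 20 to 28 fragments with a median of 24 in MIZ-1WT, and 42 to 72 with a median of 57 in MIZ-1DPOZ. The groups did not overlap in height. The local background moved the same way, with medians of 7.58 and 25.7 fragments. The ratio between libraries was 2.38 for the pileup and 3.40 for the background. The depth ratio of 1.34 is not on the same scale, since it is per bp of the smallest peak width. In fragments, the most frequent background of the whole lists was 0.860 in MIZ-1WT and 1.35 in MIZ-1DPOZ. Median fold enrichment was 2.84 in MIZ-1WT and 2.26 in MIZ-1DPOZ. At n-R5s133 the counts were 25 and 72 fragments, over a background of 7.58 and 24.3 (ratio 2.15, 1.35 to 3.53). The summits had median genomic counts of 48 and 49, near the number of genes in the array. Of these summits 0 lay inside a 5S gene, and their median position relative to the start was -310 bp in MIZ-1WT and -318 bp in MIZ-1DPOZ.

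**Figure D5:**
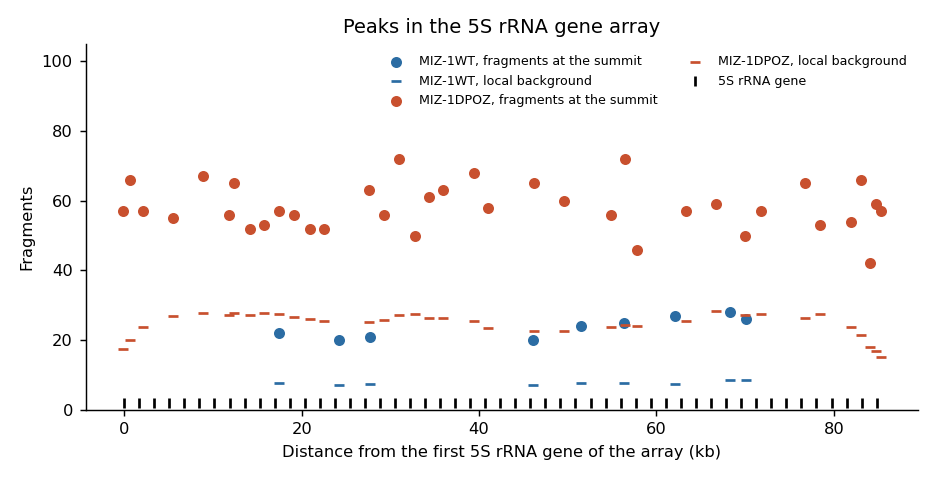
Fragments at the summit of each peak in the 5S array, against distance in kb from the first gene, for both lists, with dashes for the local background and ticks for the genes. The 9 MIZ-1WT peaks sit between 20 and 28 fragments and the 37 MIZ-1DPOZ peaks between 42 and 72.

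Outside the array, the tallest peak at an rRNA gene was that of CT010467.1 on chromosome 17, in Gm42418, with 294 fragments in MIZ-1WT and 346 in MIZ-1DPOZ. Its local background was 124 and 160 fragments, and the fold enrichment only 2.37 and 2.16. The largest pileup of the MIZ-1DPOZ list was reached here, and the MIZ-1WT pileup was close to the largest of its list, 296. The ratio of 0.878 (0.749 to 1.03) was thus measured at the top of the scale and cannot compare the libraries. n-R5s3 on the X chromosome and Gm24747 had peaks only in MIZ-1WT, of 11 and 13 fragments.

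Among spliceosomal snRNAs, peaks lay at U1 and at U6 genes. Of 114 U1 genes, 7 had a peak in MIZ-1WT, or 6.14% (3.01 to 12.1), and 19 in MIZ-1DPOZ, or 16.7% (10.9 to 24.6). Of 685 U6 genes, 21 or 3.07% (2.01 to 4.64) and 37 or 5.40% (3.94 to 7.36) had one. All these shares were under the 13.8% and 24.6% of all genes. The intervals of the families overlapped in MIZ-1WT and did not in MIZ-1DPOZ, and the difference itself was not tested. U1 peaks clustered on chromosome 3, where 5 of the 8 genes between 96328425 and 96488893 had a peak in MIZ-1WT and 7 in MIZ-1DPOZ, with 5 in both. These are 62.5% (30.6 to 86.3) and 87.5% (52.9 to 97.8), beside the 13.8% and 24.6% of all genes. Not all of these 8 genes are among the 114 U1 genes, so no share outside the cluster is given. Rnu1b1 had 8 fragments in each library, and the summits lay at -227 bp and -121 bp from its start. Rnu1b6 had 10 fragments in MIZ-1WT and 16 in MIZ-1DPOZ (1.19, 0.509 to 2.94). Gm26232 had 10 and 18, Gm25890 10 and 14, and Gm22614 8 and 13. Rnu1b2 had a peak in MIZ-1DPOZ only, of 32 fragments, with its summit -2032 bp from the start and a median genomic count of 63. The intervals of the ratio included 1 at all 5 genes with peaks in both lists. All 6 MIZ-1WT and 8 MIZ-1DPOZ summits of this cluster were multi-copy, most with a count of 2 or 3.

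Peaks at U6 genes were mostly low and lay in repeats. Median pileups were 8 fragments in MIZ-1WT and 11 in MIZ-1DPOZ, and 16 of 21 and 20 of 37 summits were multi-copy. Gm24164 stood above them with 17 and 69 fragments, and Gm22246 and Gm24851 had MIZ-1DPOZ peaks of 40 and 30 fragments without a MIZ-1WT peak. Gm22645 on chromosome 17 was a single-copy case with a peak in both lists, of 12 and 15 fragments (0.932, 0.407 to 2.18), with summits at -152 and -159 bp. The rarer snRNAs gave few peaks. U5 had 2 of 10 genes in MIZ-1WT and 0 in MIZ-1DPOZ, U2 had 1 of 28 and 0, and U4 had 0 of 11 and 1. In MIZ-1WT the intervals of U5 (5.67 to 51.0), U2 (0.633 to 17.7) and U4 (up to 25.9) include the 13.8% of all genes. In MIZ-1DPOZ those of U5 (up to 27.8) and U4 (1.62 to 37.7) include the 24.6% of all genes, and that of U2 (up to 12.1) lay under it. Of the 20 genes of 15 named snRNA symbols, which include U2, U3, U7, U11 and U12 genes, 3 had a peak in each list. Besides the U1 genes the only one was Rnu3b2, a U3 gene, with 10 fragments in MIZ-1WT at a summit sequence with a median count of 2947.

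Peaks at snoRNA genes were spread over large families. SNORD116, an imprinted C/D box family in Snhg14, has 67 genes on chromosome 7 between 59673461 and 59904848. Peaks lay at 5 of them in MIZ-1WT, or 7.46% (3.23 to 16.3), and at 18 in MIZ-1DPOZ, or 26.9% (17.7 to 38.5). Both intervals include the shares over all genes, 13.8% and 24.6%. All 5 and all 22 summits there were multi-copy, and pileups ran from 8 to 19 and from 11 to 35 fragments. SNORD115, a family of 131 genes, had 0 in MIZ-1WT (up to 2.85%) and 2 in MIZ-1DPOZ, or 1.53% (0.420 to 5.40). The H/ACA box family SNORA17, with 438 annotated genes, had 17 or 3.88% (2.44 to 6.13) and 33 or 7.53% (5.41 to 10.4). In both lists the SNORD115 and SNORA17 intervals lay under the shares over all genes. Snord37 had the best supported peak at a named snoRNA, with 24 fragments in MIZ-1WT and 46 in MIZ-1DPOZ (1.43, 0.855 to 2.45). Its summits, -172 and -145 bp from the snoRNA, lay in a coding exon of its host gene Eef2, which encodes a translation elongation factor. Gm25697, a SNORA67 copy in a repeat on chromosome 14, had 28 and 47 fragments (1.25, 0.768 to 2.08).

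A fixed list held 14 snoRNA, scaRNA and telomerase RNA genes. It was meant for genes with promoters of their own, but this was not checked for each gene, and some may be processed from host introns. Of these 14 genes 1 had a peak in MIZ-1WT, or 7.14% (1.27 to 31.5), and 3 in MIZ-1DPOZ, or 21.4% (7.57 to 47.6). The intervals include the 13.8% and 24.6% of all genes. Scarna2, a guide RNA of Cajal bodies, had 8 fragments in each library, with summits 334 and 356 bp after the start (0.746, 0.244 to 2.28). Terc, the RNA template of telomerase, had 13 fragments in MIZ-1DPOZ only, 196 bp after its start and inside the gene. Scarna17 also had 13 fragments in MIZ-1DPOZ only, and a protein-coding start lay in the same window. The other scaRNA peaks, at Gm23119, Gm23751 and Gm26039, were found in MIZ-1DPOZ only, with 8 to 11 fragments. All summits at scaRNA genes and at Terc were single-copy. On a short list of 8 RNA polymerase III genes, Rn7sk, Rn7s1, Rn7s2, Rn7s6, Rny1, Rny3, Vaultrc5 and Rnu6, 0 had a peak in either list (up to 32.4%). That interval includes the shares of all genes. Other genes annotated as U6 or 5S had peaks, but whether those copies are transcribed was not measured.

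Both named miRNAs and gene models without a miRNA name had peaks. Genes with a Mir symbol numbered 36 in both lists, 15 in MIZ-1WT only and 115 in MIZ-1DPOZ only, and those without one numbered 35, 10 and 86. Of the 2202 annotated miRNA genes 1021 have a Gm symbol, and 45 of these had a peak in MIZ-1WT and 121 in MIZ-1DPOZ. Over all miRNA genes the shares were 4.36% and 12.4%, under the 13.8% and 24.6% of all genes. Of 46 miRNA genes with known roles in B cells, 2 had a peak in MIZ-1WT, or 4.35% (1.20 to 14.5), and 4 in MIZ-1DPOZ, or 8.70% (3.43 to 20.3), near the shares of all miRNA genes. Mir34b, of the p53-responsive miR-34 family, had 8 fragments in MIZ-1WT and 11 in MIZ-1DPOZ (1.03, 0.376 to 2.94), and the start of Btg4 shared its window. Mir125b-2, in an intron of Mir99ahg, had 7 and 15 (1.60, 0.613 to 4.63). Mir210, a hypoxia-induced miRNA, and Mir23a had MIZ-1DPOZ peaks of 14 and 9 fragments and no MIZ-1WT peak. No peak was assigned to Mir155, Mir150, Mir142, Mir17 or Mir181a-1 in either list. A peak nearer to another start, such as that of a host transcript, would have been given to that gene, and this was not examined.

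RefSeq gave mature sequences for 154 of the 297 miRNA genes with a peak. Those of 3 of the B cell miRNAs just described, and of members that share a seed (bases 2 to 8) with another member, are shown with the seed in capitals. Mir692-2 and Mir692-3 give the same mature sequence as Mir692-1. The members with shared seeds were chosen after their values were seen.
mmu-miR-34b-5p, Mir34b, chr9:51103610-51103632, minus strand: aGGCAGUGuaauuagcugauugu
mmu-miR-125b-5p, Mir125b-2, chr16:77646279-77646300, plus strand: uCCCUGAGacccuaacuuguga
mmu-miR-210-3p, Mir210, chr7:141221407-141221428, minus strand: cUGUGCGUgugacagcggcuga
mmu-miR-193a-3p, Mir193a, chr11:79712009-79712030, plus strand: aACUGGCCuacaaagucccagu
mmu-miR-193b-3p, Mir193b, chr16:13449570-13449591, plus strand: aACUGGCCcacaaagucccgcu
mmu-miR-132-3p, Mir132, chr11:75173723-75173744, plus strand: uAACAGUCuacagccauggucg
mmu-miR-212-3p, Mir212, chr11:75173443-75173464, plus strand: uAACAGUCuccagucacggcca
mmu-miR-692, Mir692-1, chr17:6895259-6895279, minus strand: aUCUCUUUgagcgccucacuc

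Mir193a and Mir193b share a seed, lie on chromosomes 11 and 16, and both had peaks in the 2 lists, but at neither did the tallest peaks of the lists overlap. Mir193a had 8 fragments in MIZ-1WT, -745 bp from the start, and 13 in MIZ-1DPOZ at -166 bp. Mir193b had 15 and 12, at -1676 and -951 bp. Mir132 and Mir212, which are neighbours on chromosome 11, had MIZ-1DPOZ peaks of 14 and 12 fragments and no MIZ-1WT peak. The 3 genes Mir692-1, Mir692-2 and Mir692-3 had MIZ-1DPOZ peaks of 10, 17 and 19 fragments. Mir692-2 and Mir692-3 lie in ferritin light chain pseudogenes, Ftl2-ps and Ftl1-ps1. The whole family of 11 near-identical genes had 5 with a MIZ-1DPOZ peak, or 45.5% (21.3 to 72.0), and 0 with a MIZ-1WT peak (up to 25.9%). Both intervals include the shares over all genes, 24.6% and 13.8%.

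Counts for other near-identical miRNA gene families, picked after their values were seen, are given beside the 24.6% of all genes with a MIZ-1DPOZ peak and the 13.8% with a MIZ-1WT peak. In the 20 genes alike to Mir8117, 2 had a MIZ-1WT peak, or 10.0% (2.79 to 30.1), and 13 a MIZ-1DPOZ peak, or 65.0% (43.3 to 81.9), with 12 to 22 fragments. Of 18 genes annotated as miRNA within histone H2A sequence, 1 had a MIZ-1WT peak and 7 a MIZ-1DPOZ peak, or 38.9% (20.3 to 61.4), an interval that includes the share over all genes. Gm44466 and Gm44486, which are identical over 138 bases and lie in Hist1h2ap and Hist1h2ag, had MIZ-1DPOZ peaks of 27 and 22 fragments. Gm44359 in Hist1h2ad was the member with both, 8 fragments in MIZ-1WT and 15 in MIZ-1DPOZ (1.40, 0.557 to 3.81). The histone gene starts lie in the same windows. The miRNA genes unique to a list by name may still share their peak, as at the immunoglobulin heavy chain locus. There the MIZ-1WT peak at chr12:113424308-113425283 was assigned to Gm25747 and the MIZ-1DPOZ peak at chr12:113424314-113425306 to Gm22175, with 26 and 62 fragments over backgrounds of 2.12 and 4.62. The switch region upstream of Ighm, a stretch of short repeats such as gagct and gggct where class switch recombination begins, lies between Ighm and the joining segments.

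Of the misc_RNA genes, Gm27940 on chromosome 1 had a tall single-copy peak, with 96 fragments in MIZ-1WT and 131 in MIZ-1DPOZ (1.02, 0.776 to 1.34). Its summits were -715 and -722 bp from the start, and its -log10 q was 102 and 142. Among the 102 genes with overlapping peaks only Gm23935, Gm24270 and CT010467.1 had taller ones. Gm22344 had 11 and 21 fragments at a multi-copy summit, and Gm27901 had 13 and 17 in peaks that did not overlap. Gm26024, in Rtl4 on the X chromosome, had a MIZ-1DPOZ peak of 50 fragments whose summit sequence had a median count of 2168. Gm27913, in Pvt1, had 9 fragments in MIZ-1WT only.

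Short motifs were counted on both strands between 250 bp before and 50 bp after the starts, as a description of these windows. The TATA box core TATAAA was in 17.1% of the windows of all genes and in 21.8% of those of small RNA genes. It was in 17.1% (12.6 to 22.8) of the small RNA genes with a MIZ-1WT peak and 16.7% (13.9 to 20.1) of those with a MIZ-1DPOZ peak, against 22.3% (21.2 to 23.4) of those without a peak. Over all genes these shares were 8.40%, 9.87% and 19.7%, so this order was not particular to small RNA genes. The tRNA B box core GGTTCGA was in 0.688% of all windows. Among miRNA genes it was in 4 of 96 with a MIZ-1WT peak, or 4.17% (1.63 to 10.2), in 10 of 272 with a MIZ-1DPOZ peak, or 3.68% (2.01 to 6.63), and in 0.367% (0.178 to 0.757) of those without a peak. Over all genes GGTTCGA was in 1.19% with a MIZ-1WT peak, 1.10% with a MIZ-1DPOZ peak and 0.536% without a peak. Mir6546, Gm27552 and Gm27844 of the tRNA cluster are among both the 4 and the 10 miRNA genes. The 10 genes also include Mir10a and Mir3968. None of the 4 motifs searched, which also included CACGTG and ATGCAAAT, was in the Rnu1b1 window of that width.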

How the data were processed

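MIZ-1 ChIP-seq was performed by the authors with 1 ChIP and 1 input library per genotype, and 2 peak lists were analysed. Reads were trimmed, aligned to mm10 and passed to MACS2 with the input as control. The submitters' processing notes name Bowtie2 2.2.6 and MACS2 2.1.0, whereas the study's methods name another aligner and MACS2 version. Neither the cutoff on q nor the handling of duplicates and of reads mapping to several places is given in the sources used here. The deposited values per peak are the fold enrichment at the summit (a ratio), the -log10 p-value and -log10 q-value, a score of 10 times -log10 q, and the summit offset. Reads and input libraries were not used here.

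Peaks were assigned to the nearest start of GENCODE M21 basic (GRCm38, the same assembly as mm10; 55413 genes and 77221 starts), with products and miRNA sequences from RefSeq of GRCm38. The members and lists were chosen with earlier results of these data known. Whole-number pileups and local backgrounds were solved from the deposited fold and -log10 p under MACS2's formulas for 100% of peaks (tolerance 0.001), and the solver was checked on simulated data. The most frequent background was 0.860 fragments in MIZ-1WT and 1.35 in MIZ-1DPOZ, the smallest -log10 q was 1.03 and 1.01, and the depth ratio of 1.34 was that background per bp of the smallest peak width, 148 and 173 bp. Families were built with blastn 2.17.0 at 90% identity. Intervals are 95% Wilson for shares, order statistics for medians and exact binomial for ratios. Counting was done in Python 3.11.15 with numpy 2.4.6, pandas 2.3.3 and scipy 1.17.1. Genes named are those of the fixed lists with a peak and, per type, the 3 with the largest smaller -log10 q in both lists and the 2 in each list alone. Genes of the repeated families, of the shared seeds and with the largest ratios were named after their values were seen. Tried as alternatives were a -log10 q of at least 5, summits within 500 bp of the start, equal numbers of peaks, single-copy summits, no start of another gene type, soft-masking in place of genomic counts, and stricter overlaps.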

Additional observations from a re-analysis of the deposited data

How the results depend on the processing

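The order of the lists depended on their length. With both lists held to the number of peaks of the shorter one, MIZ-1DPOZ had 210 member peaks, 3.32% of the small RNA genes had a MIZ-1DPOZ peak and 1.06% a peak in both lists. The shares overlapping the other list were then 31.7% for MIZ-1WT and 34.8% for MIZ-1DPOZ, and 47.1% of the MIZ-1DPOZ summits were multi-copy. At a -log10 q of at least 5, there were 59 and 315 member peaks, 0.891% and 5.00% of the genes had a peak and 0.578% had one in both lists, the overlaps were 67.8% and 13.7%, and 40% of the MIZ-1DPOZ summits were multi-copy. With summits within 500 bp of the start, the counts were 104 and 307 and the shares of genes 1.68%, 4.84% and 1.09% in both, and the MIZ-1WT overlap was 66.3%. Single-copy summits alone left 131 and 388 peaks, and 2.13%, 5.91% and 1.30% of the genes. Without starts of another gene type in the window, 49.4% and 40.5% of the summits were multi-copy, and the MIZ-1DPOZ overlap was 17.7%. With a reciprocal overlap of 50% the overlaps were 35.3% and 13.4%, and with summits within 100 bp they were 36.7% and 13.9%. By soft-masking 41.5% of the MIZ-1DPOZ summits were repeats. Without the 5S array and the tRNA units, a setting chosen after seeing the data, 30.7% of the MIZ-1DPOZ summits were multi-copy. The other 24 values stayed within 1.5 times the reported count or share of genes, or within the reported interval. The cause was not tested. No paired analysis was possible because there was a single ChIP library per genotype, so depth and library cannot be told apart from genotype.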
